A study of Mus musculus with 6 samples.

Results

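The transcripts described here belong to the prostaglandin system of mouse embryo fibroblasts, connective tissue cells grown out of whole embryos. They are 10 genes of the 49315 in the count files, found by their symbols: Pla2g4a, Ptgs1, Ptgs2, Ptgs2os2, Ptges, Ptgis, Ptger2, Ptger4, Ptgfr and Hpgd. The lines labelled SG (SG1, SG2 and SG3) were p53-/-;MDMXSG/SG, so that both copies of Mdm4, the gene of MDMX, carried the knock-in changes W201S and W202G. The lines labelled WT (WT3, WT9 and WT11) were p53-/-;MDMXWT/WT. All 6 lines thus lacked p53, were of the C57BL/6 strain, stood at passage 4 and were grown untreated in DMEM with 10% FBS. Each line came from 1 embryo, so n = 3 embryos per genotype. The study asked which transcripts change when MDMX can no longer bind CK1-alpha, a kinase that also acts on beta-catenin. The 10 genes were chosen by pathway membership, with the SG against WT fold changes and calls of these same libraries known, so their differences between genotypes are given as a description and not as a test.

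Prostaglandins are short-lived lipid signals made from arachidonic acid. A phospholipase frees the fatty acid from membranes, a cyclooxygenase turns it into the intermediate PGH2, and terminal synthases turn PGH2 into the separate prostanoids, such as PGE2 and prostacyclin. These leave the cell and act on G protein-coupled receptors, and a dehydrogenase inactivates them. Fibroblasts are a well-known source of PGE2, and the inducible cyclooxygenase gene Ptgs2 responds to serum and inflammatory cytokines.

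Total counts ran from 54852998 to 64434605 in SG lines and from 49317925 to 65457242 in WT lines. Of 16068 genes with enough reads to test, 306 passed an adjusted p of 0.05 in edgeR's quasi-likelihood test (1.9%), 130 higher and 176 lower in SG. Those genes are called in what follows. Fibroblast markers were abundant, with a summed level of 23170 to 25790 CPM (counts scaled to library size) in SG and 22126 to 22864 CPM in WT over 10 genes. Most of that sum was Fn1, Col1a1, Vim and Col1a2. Only 3 of the 10 had estimates above 0. Thy1 was called lower and Fn1 higher in SG. DESeq2 called these 2 in the same directions, and Pdgfrb and Vim lower as well, both with SG lines wholly below WT lines. The 10 macrophage markers summed to 28.2 to 66.2 CPM in SG and 12.5 to 35.1 CPM in WT, with SG3 highest and WT11 lowest, and 0 of them were at 0 in every line. The 8 endothelial markers summed to 52.9 to 72.6 CPM in SG and 39.4 to 54.4 CPM in WT, nearly all of it Kdr. The defining endothelial gene Pecam1 stayed at 0.0342 to 0.172 CPM in SG and 0.0764 to 0.117 CPM in WT. Emcn, Tek, Cdh5 and Vwf were low but had enough reads to test, and none was called. Emcn had 95, 61 and 30 reads in SG1, SG2 and SG3, against 42, 84 and 9 in WT3, WT9 and WT11. Kdr was called higher in SG by DESeq2 but not by edgeR, and its lines overlapped between genotypes. The 6 mast cell markers summed to 1.18 to 2.29 CPM in SG and 0.650 to 1.147 CPM in WT. Most of it was Kit, with 81, 129 and 46 reads in SG1, SG2 and SG3, against 23, 51 and 20 reads in WT3, WT9 and WT11, wholly higher in SG lines and called by DESeq2 but not by edgeR (log2 fold change 1.43, SE 0.42). Mcpt4 and Tpsb2, defining genes of mast cells, were at 0 in every line. Ms4a2, another marker of the list, was detected in every line and not called. It had 12, 17 and 21 reads in SG1, SG2 and SG3, against 12, 23 and 15 in WT3, WT9 and WT11. The 6 epithelial markers summed to 14.5 to 27.8 CPM in SG and 9.58 to 16.8 CPM in WT, most of it Krt18. Krt5 had 162 and 107 reads in SG1 and SG2 and 0 reads in SG3 and in every WT line. Krt14 had 43, 96 and 18 reads in SG1, SG2 and SG3, against 8, 6 and 16 in WT3, WT9 and WT11. It was wholly higher in SG lines and called by DESeq2 but not by edgeR (log2 fold change 2.33, SE 0.63). The 5 smooth muscle markers, which cultured fibroblasts share, summed to 4478 to 5193 CPM in SG and 4385 to 5371 CPM in WT.

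Ptgs2 was by far the most abundant of these transcripts in both genotypes, and 2 of the genes were called. Of the 10 genes, 9 had enough reads to test and Ptger2 did not. Pla2g4a was called higher in SG, where 0.809% of all tested genes were, and Ptgs2os2 was called lower, where 1.1% of all tested genes were. The other 7 were not called. Of the 9, 4 had estimates above 0 and 5 below 0, with a median log2 fold change of -0.22 against 0.00 over all tested genes. Their median absolute log2 fold change was 0.33, against 0.09 over all tested genes. The 3 SG lines lay wholly above the 3 WT lines for Pla2g4a and wholly below them for Ptgs2os2, Ptger4 and Ptgfr, so 4 of 9 did not overlap. Among all tested genes 21.2% did not overlap. Since the genes were picked with this comparison in view, nothing is read from these shares.

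**Figure D1:**
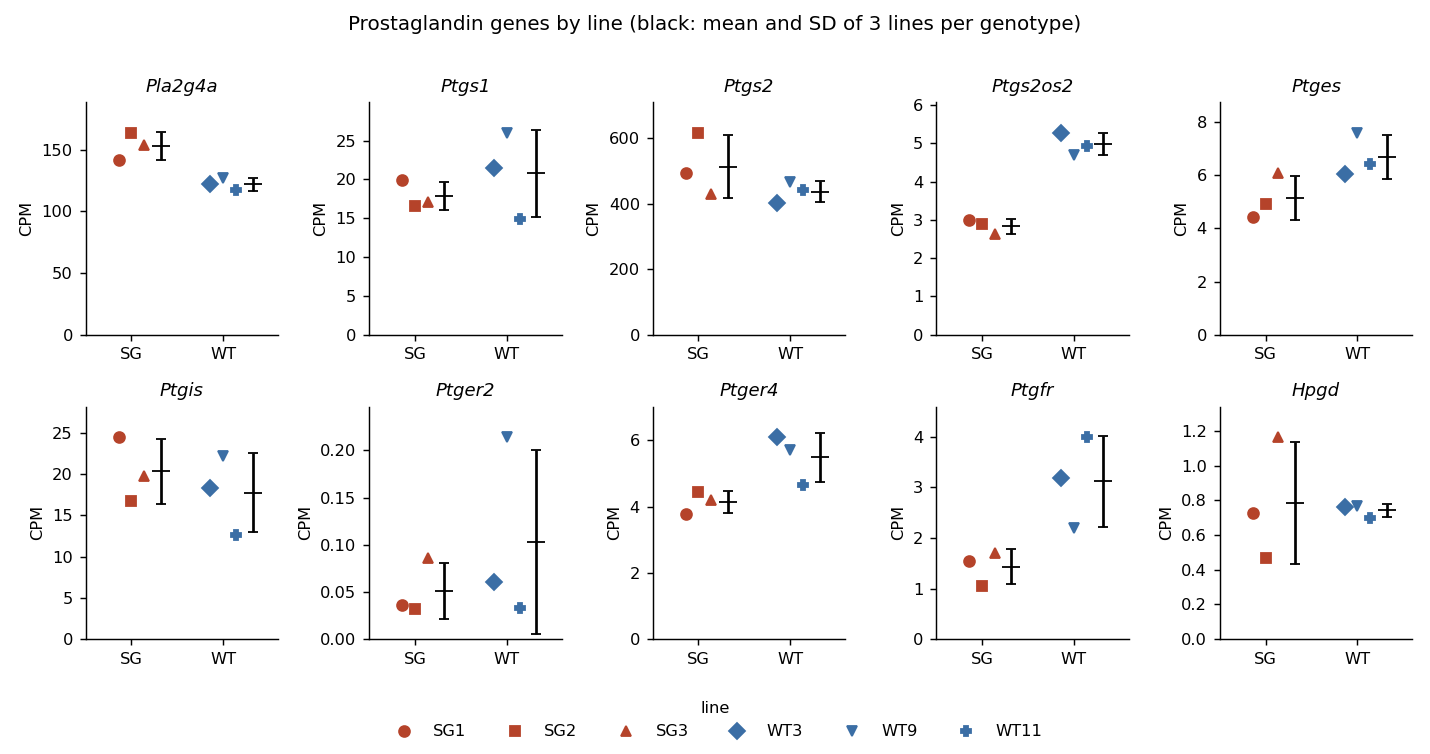
Level of each of the 10 genes in CPM (vertical axis, from 0, with its own scale per gene) in the 3 SG and the 3 WT lines. Each symbol is a line, and the black marks are the mean and SD of 3 lines. SG and WT lines lie apart for Pla2g4a, Ptgs2os2, Ptger4 and Ptgfr and overlap for the other 6.

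Per length of transcript, the 10 genes spanned a wide range with Ptgs2 at the top. Levels are in RPKM here, the CPM divided by the exon length in kilobases. Ptgs2 averaged 112 ± 20.9 RPKM in SG and 95.5 ± 7.002 RPKM in WT lines (SD, n = 3 each), above 97.2% of all tested genes. Pla2g4a followed at 24.0 ± 1.75 RPKM in SG and 19.1 ± 0.802 RPKM in WT. Ptgis and Ptgs1 came next, at 7.93 ± 1.52 and 4.59 ± 0.468 RPKM in SG and 6.91 ± 1.86 and 5.35 ± 1.45 RPKM in WT, and although their ranges over the 6 lines overlapped, Ptgis was above Ptgs1 in all 6. The ranges of Ptgs2os2 and Ptges overlapped too, as did those of Ptger4 with Hpgd and Hpgd with Ptgfr, and the first of each pair was above the second in 5, 5 and 4 of the 6 lines. Hpgd stood above Ptgfr in SG lines (0.467 ± 0.209 against 0.212 ± 0.0507 RPKM), while in WT lines Hpgd averaged 0.441 ± 0.0216 RPKM and Ptgfr 0.461 ± 0.133 RPKM. Ptger2 was lowest, at 0.0139 ± 0.00815 RPKM in SG and 0.0278 ± 0.0265 RPKM in WT.

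**Figure D2:**
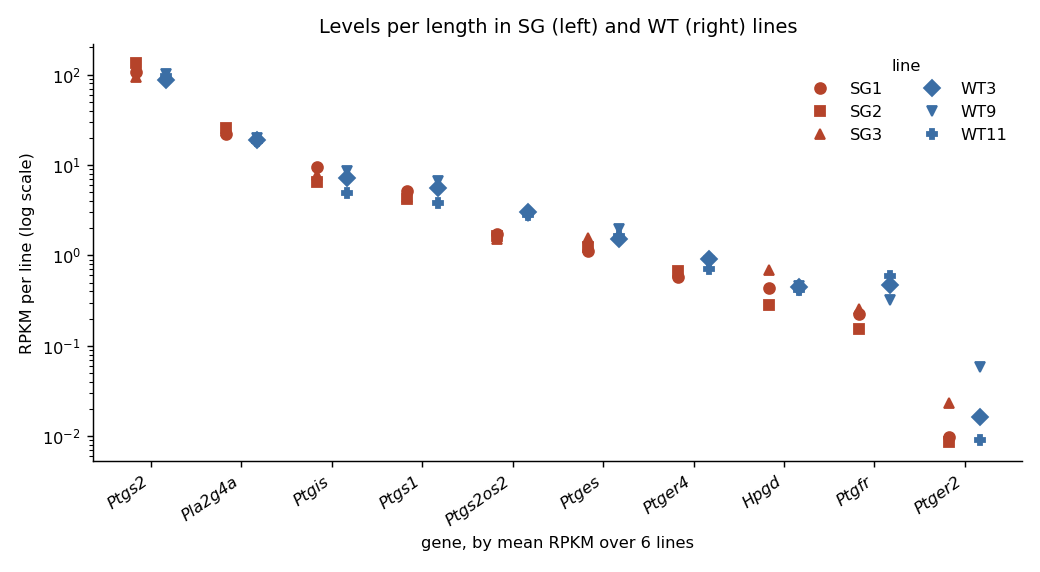
RPKM of each gene on a log axis in every line, with SG lines left and WT lines right of each gene's mark and genes ordered by their mean over the 6 lines. Ptgs2 ranges from 88.2 to 135 RPKM and Ptger2 from 0.00851 to 0.0581 RPKM, and 4 of the 7 neighbouring pairs from Ptgis downward overlap.

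The phospholipase gene was the 1 member called higher in SG. Pla2g4a (ENSMUSG00000056220, GRCm38 chromosome 1, 149829618 to 149961290, minus strand) encodes cytosolic phospholipase A2 alpha, which releases arachidonic acid from membranes. It was at 142, 164 and 154 CPM in SG1, SG2 and SG3, against 122, 127 and 117 CPM in WT3, WT9 and WT11. Every SG line stood above every WT line. The mean was 153 ± 11.2 CPM in SG lines and 122 ± 5.12 CPM in WT, a 1.25-fold difference (log2 fold change 0.33, SE 0.06). The call was lost when SG2, SG3, WT3 or WT11 was left out, with log2 fold changes between 0.27 and 0.41 over all alternatives.

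The inducible cyclooxygenase did not separate the genotypes. Ptgs2 (ENSMUSG00000032487, chromosome 1, 150100031 to 150108227, plus strand) encodes COX-2. It was at 494, 618 and 430 CPM in SG1, SG2 and SG3 and at 404, 468 and 442 CPM in WT3, WT9 and WT11. SG2 was the highest line, while SG3 lay below WT9 and WT11, so the genotypes overlapped. The log2 fold change was 0.23 (SE 0.12), and it ranged from 0.08 to 0.34 when the processing or the lines were varied, never called.

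The constitutive cyclooxygenase gene was far lower per length. Ptgs1 (ENSMUSG00000047250, chromosome 2, 36230426 to 36252272, plus strand) encodes COX-1. It was at 19.9, 16.5 and 17.1 CPM in SG1, SG2 and SG3 and at 21.4, 26.0 and 14.9 CPM in WT3, WT9 and WT11. WT lines spread on both sides of the SG lines (log2 fold change -0.22, SE 0.18), and the estimate was -0.02 without WT9 and -0.41 without WT11. Of its 3884 exon bases, 148 are shared with Gm43621. Per length, Ptgs2 exceeded Ptgs1 by 21.0 times in SG1, 31.7 times in SG2 and 21.3 times in SG3, against 15.98, 15.2 and 25.2 times in the WT lines in the order above, so this ratio overlapped between genotypes as well.

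The long noncoding RNA gene downstream of Ptgs2 was the 1 member called lower in SG. Ptgs2os2 (ENSMUSG00000097754, chromosome 1, 150159043 to 150164948, minus strand) carries a name for the strand opposite Ptgs2. Its exons in the files shared 0 bases with any other gene and began 50.8 kb beyond the end of Ptgs2. Whether transcripts running on from Ptgs2 add to its reads was not tested. It was at 2.99, 2.88 and 2.62 CPM in SG1, SG2 and SG3, against 5.28, 4.71 and 4.93 CPM in WT3, WT9 and WT11. The lines of each genotype lay close together and far from the other genotype. It averaged 2.83 ± 0.191 CPM in SG lines and 4.97 ± 0.289 CPM in WT, 1.76-fold lower in SG (log2 fold change -0.81, SE 0.11). The call was lost without SG2, WT3 or WT11, while the log2 fold change stayed between -0.89 and -0.76 over all 13 alternatives.

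Pla2g4a, Ptgs2 and Ptgs2os2 lie near each other on chromosome 1, and no test was run of whether their differences are unequal. Within 500 kb on each side of Ptgs2 the files list 17 genes, of which 8 were tested and 2 called, 1 in each direction. Ptgs2os, a second noncoding gene whose start lies head to head with that of Ptgs2, was at 5.11, 5.44 and 4.02 CPM in SG1, SG2 and SG3 and at 3.72, 5.01 and 3.70 CPM in WT3, WT9 and WT11. Its log2 fold change of 0.23 (SE 0.17, adjusted p = 0.586 in edgeR over all genes) equalled that of Ptgs2 to 2 decimals, and its genotypes overlapped. On the far side of Ptgs2os2, Rbm3-ps, Odr4, Tpr and Prg4 had log2 fold changes of -0.09, -0.03, 0.06 and 0.00, none called. Mdm4, the gene that carries the knock-in, lies 17.1 Mb from Ptgs2 on the same chromosome.

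**Figure D3:**
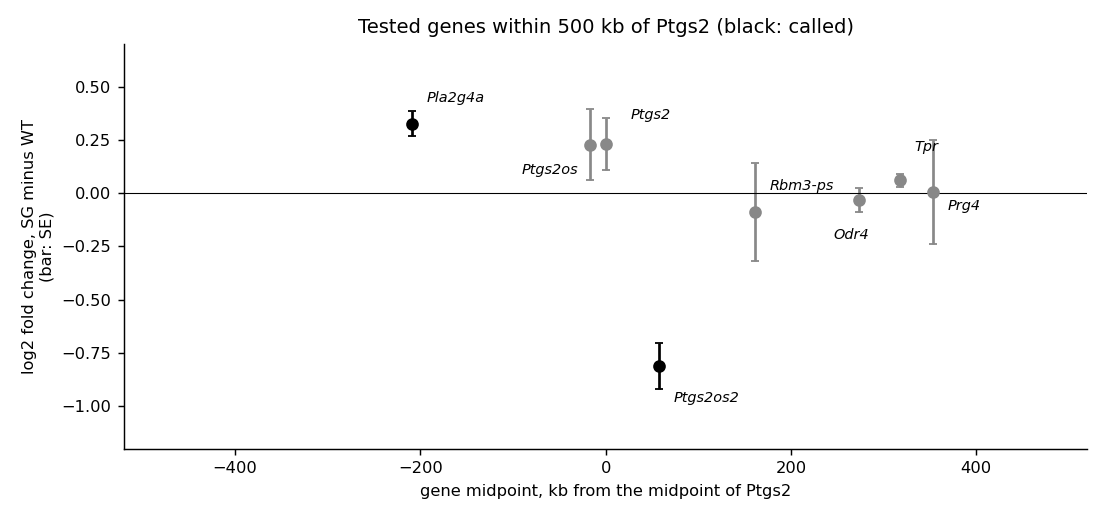
Log2 fold change, SG minus WT, of the 8 tested genes within 500 kb of Ptgs2 (vertical axis, bars are the SE) against the distance of their midpoints from that of Ptgs2 in kilobases. Pla2g4a at 0.33 and Ptgs2os2 at -0.81 are called (black), and the genes between and beyond them lie within 0.25 of 0.

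The sequences around the starts of these 3 genes are shown because Ptgs2 lies between the 2 called genes, Pla2g4a and Ptgs2os2, which differed in opposite directions. They run from 250 bases before to 50 after the annotated start, from RefSeq on GRCm38.p6, and the starts match those of the count files. Of the 10 genes, 9 had such a sequence. Capitals mark matches on either strand to 7 motifs, namely the TATA box (TATAAA), the cAMP response half-site (TGACG), the E-box (CACGTG), the NF-kB motif, C/EBP (TTNNGCAA), TCF/LEF (CTTTGAT) and AP-1 (TGANTCA). The first is at chr1:150099781-150100080 on the plus strand, the second at chr1:149961241-149961540 and the third at chr1:150164899-150165198, both on the minus strand.
Ptgs2: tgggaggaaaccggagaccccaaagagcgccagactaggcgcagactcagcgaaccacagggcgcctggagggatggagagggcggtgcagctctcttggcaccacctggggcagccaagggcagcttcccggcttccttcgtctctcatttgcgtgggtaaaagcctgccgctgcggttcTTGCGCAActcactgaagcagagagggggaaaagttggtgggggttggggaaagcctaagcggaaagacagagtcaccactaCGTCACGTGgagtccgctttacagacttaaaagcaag
Pla2g4a: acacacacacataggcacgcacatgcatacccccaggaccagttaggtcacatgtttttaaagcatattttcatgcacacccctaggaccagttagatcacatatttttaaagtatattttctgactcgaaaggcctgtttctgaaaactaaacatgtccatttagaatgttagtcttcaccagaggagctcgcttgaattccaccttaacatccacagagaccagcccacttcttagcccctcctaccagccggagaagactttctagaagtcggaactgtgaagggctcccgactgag
Ptgs2os2: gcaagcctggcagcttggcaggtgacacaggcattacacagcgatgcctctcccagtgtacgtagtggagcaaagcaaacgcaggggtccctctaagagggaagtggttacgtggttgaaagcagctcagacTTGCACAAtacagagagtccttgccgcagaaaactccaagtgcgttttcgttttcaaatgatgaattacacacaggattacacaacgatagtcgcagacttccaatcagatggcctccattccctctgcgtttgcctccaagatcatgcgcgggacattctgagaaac

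The Ptgs2 window held 3 matches. A C/EBP match lay at -69 to -62 from the start, and a cAMP half-site at 14 to 18 shared 2 bases with an E-box at 17 to 22. The Pla2g4a window shown, that of the start in the count files, held 0 matches to the 7 motifs, while a window at another RefSeq start of the gene held a TATA box match at -200 to -195. The Ptgs2os2 window held 1, to C/EBP at -118 to -111. Over 32851 promoter windows of this length, 20.8% held the cAMP half-site, 7.15% the E-box and 10.8% the C/EBP motif. The TCF/LEF motif, which 3.73% of all windows hold, was found in none of the 3. The Ptgs2os window overlaps that of Ptgs2 on the opposite strand and holds the same 3 matches. These are matches of letters and not measured binding.

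Both terminal synthase genes among the members overlapped between genotypes. Ptges (ENSMUSG00000050737, chromosome 2, 30889471 to 30929863, minus strand) encodes microsomal prostaglandin E synthase 1, the inducible maker of PGE2. It was at 4.44, 4.92 and 6.08 CPM in SG1, SG2 and SG3 and at 6.04, 7.61 and 6.45 CPM in WT3, WT9 and WT11. SG3 stood just above WT3, and the other SG lines lay below all WT lines (log2 fold change -0.38, SE 0.14). Ptgis (ENSMUSG00000017969, chromosome 2, 167191805 to 167240604, minus strand) encodes prostacyclin synthase. It was at 24.5, 16.8 and 19.7 CPM in SG1, SG2 and SG3 and at 18.3, 22.2 and 12.7 CPM in WT3, WT9 and WT11. The genotypes were interleaved (log2 fold change 0.20, SE 0.21), and the estimate was 0.04 without SG1, 0.0045 without WT11, 0.32 without SG2 and 0.39 without WT9. Per length, Ptgis exceeded Ptges in every line, with ratios of 8.46 in SG1, 5.23 in SG2 and 4.97 in SG3, against 4.64 in WT3, 4.47 in WT9 and 3.02 in WT11. All 3 SG lines had a higher Ptgis to Ptges ratio than all 3 WT lines, by a narrow gap between SG3 and WT3. How often ratios of other gene pairs separate the genotypes was not examined, so nothing is read from this. Ptgis shares 156 exon bases with 1110018N20Rik, and how reads there were assigned is not given in the sources used here.

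Among the receptors, Ptgfr and Ptger4 were lower in every SG line and Ptger2 was barely detected, but none was called. Ptgfr (ENSMUSG00000028036, chromosome 3, 151796502 to 151837630, minus strand) encodes the receptor of PGF2 alpha. It was at 1.54, 1.05 and 1.71 CPM in SG1, SG2 and SG3, against 3.18, 2.20 and 4.00 CPM in WT3, WT9 and WT11. No SG line reached the lowest WT line, WT9. The averages were 1.43 ± 0.344 CPM in SG lines and 3.13 ± 0.899 CPM in WT, which is a log2 fold change of -1.13 (SE 0.27), the largest in size of the 9. It was called in 4 of 13 alternatives, namely with DESeq2, without a filter on low counts, without WT9 and without both SG1 and WT9. Ptgfr shares 329 of its 6778 exon bases with Gm43618.

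Ptger4 (ENSMUSG00000039942, chromosome 15, 5206661 to 5244187, minus strand) encodes EP4, a PGE2 receptor that raises cAMP. It was at 3.79, 4.43 and 4.21 CPM in SG1, SG2 and SG3, against 6.10, 5.70 and 4.66 CPM in WT3, WT9 and WT11. The gap between SG2 and WT11 was narrow (log2 fold change -0.40, SE 0.13). Ptger4 shares 1097 of its 6648 exon bases with other genes, Ttc33 among them, and how reads there were assigned is not given in the sources used here. Ptger2 (ENSMUSG00000037759, chromosome 14, 44988195 to 45003820, plus strand) encodes EP2, the other PGE2 receptor that raises cAMP. It had 2, 2 and 5 reads in SG1, SG2 and SG3 and 3, 14 and 2 reads in WT3, WT9 and WT11, too few to test. Per length, Ptger4 made up 65.4% of the summed RPKM of the 4 PGE2 receptor genes in SG1, 64.5% in SG2 and 71.1% in SG3, against 74.9% in WT3, 68.3% in WT9 and 68.7% in WT11. Ptger1, the gene of EP1, made up most of the rest, with 24.6% to 32.8% in SG and 20.6% to 28.4% in WT.

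The breakdown gene was low and varied mainly among SG lines. Hpgd (ENSMUSG00000031613, chromosome 8, 56294585 to 56321043, plus strand) encodes 15-hydroxyprostaglandin dehydrogenase, which inactivates PGE2 and PGF2 alpha. It was at 0.725, 0.470 and 1.16 CPM in SG1, SG2 and SG3 and at 0.760, 0.764 and 0.6995 CPM in WT3, WT9 and WT11. The WT lines lay inside the range of the SG lines. The log2 fold change was 0.08 (SE 0.32), and it turned to -0.32 without SG3. SG3 was also the line with the most macrophage marker RNA (66.2 CPM summed, against 28.2 and 32.1 CPM in SG1 and SG2), whose part in the Hpgd level was not tested. In bulk RNA, more cells of a type and more RNA per cell cannot be told apart.

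Lines of 1 genotype differed from each other more for several of these genes than for a usual gene. The SD of log2 CPM within genotypes was 0.44 for Hpgd, 0.40 for Ptgfr, 0.35 for Ptgis and 0.31 for Ptgs1, against a median of 0.10 over all tested genes. Hpgd rests on few reads, 30 to 68 in SG lines and 38 to 50 in WT lines. It was 0.20 for both Ptgs2 and Ptges and 0.16 for Ptger4. Only the 2 called genes, Pla2g4a and Ptgs2os2, lay below the median, both at 0.09. The call itself sets the genotype difference against the spread within genotypes in these libraries, so a low spread favours a call. Among WT lines, WT9 was highest in 6 of the 9 genes and WT11 lowest in 5. SG1, SG2 and SG3 were each highest among SG lines in 3 of the 9.

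Ptgs1 and Ptgis, a pair picked after the deviations of all 9 genes were seen, deviated alike from the means of their genotypes. In WT3, WT9 and WT11 the deviations were 0.08, 0.36 and -0.45 for Ptgs1 and 0.08, 0.36 and -0.44 for Ptgis, in log2 CPM. In SG1, SG2 and SG3 they were 0.16, -0.11 and -0.06 for Ptgs1 and 0.29, -0.26 and -0.03 for Ptgis. Within each genotype, both genes were highest in the line with Xist RNA, which marks female cells. Those lines were SG1 (399 CPM of Xist) and WT9 (343 CPM of Xist), while the other 4 had below 1 CPM. Across all lines Ptgis was still highest in this pair, but Ptgs1 was not. Ptgs1 was higher in WT3 (21.4 CPM), a line without that marker, than in SG1 (19.9 CPM). The summed smooth muscle markers were at 4978, 5193 and 4478 CPM in SG1, SG2 and SG3 and at 4750, 5371 and 4385 CPM in WT3, WT9 and WT11, again highest in WT9 and lowest in WT11 among WT lines. Among SG lines this sum, most of it Acta2, was instead highest in SG2, where both Ptgs1 and Ptgis were lowest. The single markers differed in this. Acta2, Tagln and Myh11 were highest in SG2 among SG lines. Cnn1 (256, 227 and 199 CPM in SG1, SG2 and SG3) and Des (25.1, 19.4 and 16.5 CPM) were highest in SG1. The part of sex or of smooth muscle transcripts in the levels of Ptgs1 and Ptgis was not tested.

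**Figure D4:**
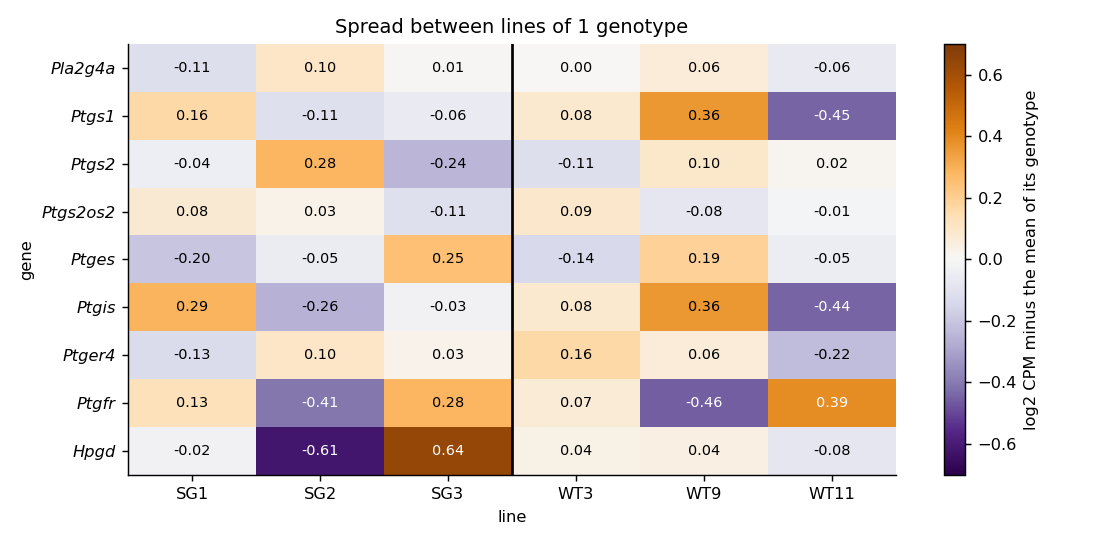
Log2 CPM of each line minus the mean of its genotype, by line (columns, SG left of WT) and gene (rows), with the value printed in each cell. Ptgs1 and Ptgis share high values in WT9 (0.36 each) and low values in WT11 (-0.45 and -0.44), and Hpgd runs from -0.61 in SG2 to 0.64 in SG3.

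By their profile over the 6 lines, the genes most like Ptgs2 were Gas6, Fosb and Zfp354a. Likeness was the root mean square difference of log2 CPM deviations from the mean of all 6 lines, over the 11501 genes whose average log2 CPM was 1 or more. It was 0.0520, 0.0579 and 0.0597 for these 3, where the profile of Ptgs2 itself had a size of 0.197. Fosb, an AP-1 factor gene, was at 11.3, 12.5 and 9.50 CPM in SG1, SG2 and SG3 and at 8.98, 10.3 and 10.1 CPM in WT3, WT9 and WT11. The nearest to Ptger4 were Map7d3, P4ha3 and Tusc1 (0.0688, 0.101 and 0.105, own size 0.239). For Ptgis they were Npas4, Zic2 and Ucp2 (0.0913, 0.0926 and 0.0943, own size 0.304). With 6 lines such a likeness is a description only.

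Beyond the 10 genes, edgeR called 2 of 81 tested genes of the wider pathway higher in SG and 0 lower. The 81 came from 105 genes in 8 lists. Over all tested genes 0.809% were called higher and 1.1% lower, 1.9% in either direction, and the 2 called of 81 are near that background. DESeq2 called 5 higher (Lpcat2, Rgs2, Tbxas1, Tlr4 and Nr3c1) and 2 lower (Slco2a1 and Fabp5), and at an unadjusted p of 0.05 edgeR had 10 higher and 9 lower. Over all genes DESeq2 called 2.82% higher and 3.36% lower, 6.17% in all, and the unadjusted p in edgeR was passed by 7.28% higher and 8.2% lower, 15.5% in all. The counts per list that follow are to be read against these shares. Genes named for these wider counts were picked after their values were seen. The median log2 fold change of the 81 was 0.02, against 0.00 over all tested genes. Lpcat2, an acyltransferase that works arachidonate into membrane lipids and makes platelet-activating factor, was at 6.67, 7.69 and 8.51 CPM in SG1, SG2 and SG3, against 4.22, 4.08 and 3.81 CPM in WT3, WT9 and WT11. The difference was 1.89-fold (log2 fold change 0.92 with SE 0.11, adjusted p = 0.0158 in edgeR), with SG lines wholly above WT lines, a call lost without SG2, WT3 or WT11. Of the 11 tested genes in its list, arachidonate handling, edgeR had 2 higher (Lpcat2 and Mboat7) and 1 lower (Fabp5) at an unadjusted p of 0.05. Fabp5 was at 102, 93.3 and 88.1 CPM in SG1, SG2 and SG3, against 112, 116 and 125 CPM in WT3, WT9 and WT11. SG lines lay wholly below WT lines (log2 fold change -0.32, SE 0.06, adjusted p = 0.0539 in edgeR).

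Rgs2, an inhibitor of Gq signalling that is induced by cAMP, was the other called gene. It was at 9.46, 12.3 and 12.9 CPM in SG1, SG2 and SG3, against 5.72, 7.23 and 4.55 CPM in WT3, WT9 and WT11. Every SG line stood above every WT line (log2 fold change 0.98, SE 0.18, adjusted p = 0.0445 in edgeR). The call did not survive the removal of SG2, SG3, WT3 or WT11, nor a robust prior, nor a minimum of 1 CPM in 3 lines. It was the only one called of 16 cAMP and PGE2 response genes, of which 12 had estimates above 0 and 4 below 0, with a median of 0.14.

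The rest of the machinery around the 10 genes held no called gene in edgeR, list by list. Among 10 tested phospholipases and related genes, estimates were above 0 in 7, and the highest per length were Anxa1, a phospholipase inhibitor, and Plaa, a phospholipase activator (log2 fold changes 0.05 and 0.02, SE 0.07 and 0.04). At an unadjusted p of 0.05 edgeR had 0 higher and 1 lower, the secreted phospholipase gene Pla2g2e, and DESeq2 called 0. Of 8 other prostanoid synthases, Ptges3 and Akr1b8 were highest per length, at 136 ± 3.61 and 25.0 ± 1.35 RPKM in SG and 138 ± 4.47 and 23.9 ± 0.802 RPKM in WT. In edgeR an unadjusted p under 0.05 was reached by 1 of these, the thromboxane synthase gene Tbxas1, which DESeq2 also called. It was at 2.10, 2.41 and 2.26 CPM in SG1, SG2 and SG3, against 1.02, 1.68 and 0.949 CPM in WT3, WT9 and WT11, with SG lines wholly above WT lines (log2 fold change 0.88, SE 0.23, adjusted p = 0.111 in edgeR). Ptges3 encodes the cytosolic PGE synthase, also known as the chaperone p23, and exceeded Ptges per length in both genotypes.

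The list of other receptors held 4 tested genes, 3 for receptors and Ptgfrn for a receptor-binding protein, and none was called. All 4 estimates were below 0, that of Ptger1 well within its SE (log2 fold change -0.02, SE 0.20). Tbxa2r, the thromboxane receptor gene, was at 0.670, 0.533 and 0.582 CPM in SG1, SG2 and SG3, against 1.02, 0.994 and 0.999 CPM in WT3, WT9 and WT11. SG lines lay wholly below WT lines, and the gene missed the threshold (log2 fold change -0.76, SE 0.18, adjusted p = 0.0908 in edgeR). Ptgfrn, which encodes a protein that binds the PGF2 alpha receptor, was at 141 ± 12.4 CPM in SG lines and 149 ± 6.29 CPM in WT lines (log2 fold change -0.08, SE 0.07). At an unadjusted p of 0.05 edgeR had 0 higher and 2 lower of the 4, Tbxa2r and the prostacyclin receptor gene Ptgir, and DESeq2 called 0.

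Of 7 transport and breakdown genes, Zadh2 and Ptgr1, both reductases of prostaglandin breakdown, were highest per length (log2 fold changes -0.09 and 0.23, SE 0.05 and 0.10). Slco2a1, named after its values were seen, encodes the transporter that takes prostaglandins back into cells. It was at 34.8, 29.5 and 41.4 CPM in SG1, SG2 and SG3, against 63.5, 43.4 and 69.7 CPM in WT3, WT9 and WT11. SG lines lay below WT lines by a narrow gap between SG3 and WT9 (log2 fold change -0.74, SE 0.18, adjusted p = 0.0937 in edgeR). It was the 1 gene of the list with an unadjusted p under 0.05, and DESeq2 called it.

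Of the leukotriene and lipoxygenase branch, 5 of 14 genes were tested, led per length by Lta4h (87.9 ± 1.54 CPM in SG lines, 89.3 ± 0.493 CPM in WT) and Dpep1 (4.27 ± 0.775 CPM in SG lines, 2.98 ± 0.704 CPM in WT), which convert leukotrienes. At an unadjusted p of 0.05 edgeR had 2 higher (Alox12 and Dpep1) and 0 lower, and DESeq2 called 0. Among 20 tested inducers and regulators of Ptgs2, 11 estimates were above 0 and 9 below. Khsrp, a protein that destabilises AU-rich mRNAs, was at 264 ± 6.49 CPM in SG lines and 257 ± 4.04 CPM in WT, and the AP-1 gene Jun at 178 ± 15.0 CPM in SG lines and 202 ± 12.2 CPM in WT lines (log2 fold changes 0.04 and -0.18, SE 0.03 and 0.07). At an unadjusted p of 0.05 edgeR had 2 higher (Tlr4 and Nr3c1) and 2 lower (Il1r1 and Jun), and DESeq2 called the same pair higher. Il1b, the cytokine gene best known for inducing Ptgs2, had 0 reads in all 6 lines.

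**Figure D5:**
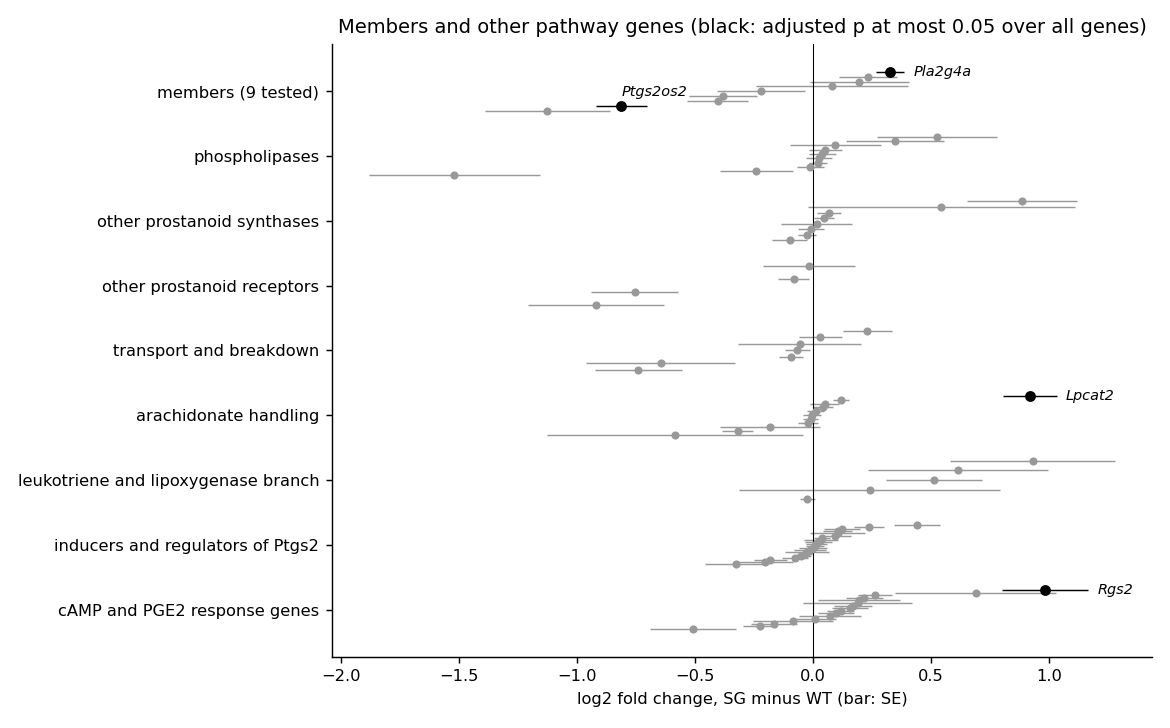
Log2 fold change, SG minus WT (horizontal axis), of the 9 tested members (top row) and of the 81 tested genes of 8 pathway lists, 1 point per gene with its SE. Black points passed the threshold over all genes: Pla2g4a, Lpcat2 and Rgs2 to the right of 0 and Ptgs2os2 to the left.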

How the data were processed

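Poly(A)-selected RNA of 6 fibroblast lines was sequenced, per the labels' protocols. The deposited files hold raw counts of reads per gene with exon positions and length. Trimmomatic 0.36, STAR 2.5.2b, featureCounts of Subread 1.5.2 and DESeq2 were used with GRCm38, per the submitters' processing notes. The annotation release, the strand setting and the handling of multimapping reads are not given in the sources used here. Symbols came from GENCODE M21, which named 48970 of 49315 identifiers, and all 10 members matched. No row lacked a gene identifier and no 2 files were identical.

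Counts were filtered with filterByExpr, scaled by TMM and tested, SG against WT, with edgeR 4.0.16 (glmQLFit, glmQLFTest, no covariate, 2-sided, R 4.3.3). P-values were adjusted by Benjamini-Hochberg over the 16068 genes tested, with a threshold of 0.05. The SE is the log2 fold change over the square root of F. CPM use the TMM library size, and RPKM divide them by exon length. The members and lists were chosen with earlier results of these data known. All members are named, and per pathway list the called genes or, with none, the 2 of highest RPKM. Further pathway genes, such as Tbxas1, Slco2a1 and Fabp5, were named outside that rule, after their values were seen. The 7 members that missed the threshold had adjusted p of 0.0826 to 0.937, and both called members 0.018 and 0.0413. Alternatives were RLE and upper quartile scaling, no filter or at least 1 CPM in 3 lines, a robust prior, DESeq2 1.42.0, leaving out each line and leaving out SG1 and WT9. The labels give no batch.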

Additional observations from a re-analysis of the deposited data

How the results depend on the processing

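The counts of calls depend on the fit and on single lines. With DESeq2, 426 genes were higher and 508 lower in SG, without a filter on low counts 421 and 538, and without SG1 and WT9 315 and 388, against 130 and 176. Leaving out 1 line gave 2 to 234 higher and 1 to 345 lower, the fewest without SG2. Of the prostaglandin genes, leaving out 1 line gave 0 to 1 called higher and 0 to 2 lower, and 2 were lower with DESeq2, without a filter, and without SG1 and WT9, Ptgfr being the second. For the wider pathway (2 higher and 0 lower), DESeq2 gave 5 and 2, no filter 5 and 3, and leaving out SG1 and WT9 5 and 2. A robust prior or a minimum of 1 CPM gave 1 higher. Leaving out 1 line gave 0 to 4 higher and 0 to 2 lower. The cause of these moves was not tested. The 9 members gave 116 values over 13 alternatives, of which 115 kept their sign. Of these 7 lost a call, 4 gained one, and Hpgd turned to a log2 fold change of -0.32 without SG3. With 1 line left out Hpgd ranged from -0.3191 to 0.3521, Plaa from -0.0011 (without SG2) to 0.0446 and Ptges3 from -0.0473 to 0.0017 (without WT11). Ranked by CPM in place of RPKM, 7 of 10 members change place, while Ptgs2, Pla2g4a and Ptger2 keep theirs. No paired analysis was possible because each line came from its own embryo and the labels name no pairs of SG and WT lines. At the depth here, 2 to 14 reads for Ptger2 allow no comparison.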
